A study of Homo sapiens with 6 samples.

Results

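The RNA of 9 enzymes that build, supply or break down glycogen is followed in HCT116 cells, a line of human colorectal cancer cells, after depletion of STBD1, the receptor that ties glycogen to the autophagosome. The enzymes are PGM1, UGP2, GYG1, GYS1, GBE1, PYGL, PYGB, GAA and EPM2A. They were chosen by gene symbol and all 9 were found among the 58395 Ensembl genes listed for each library. The cells express either a non-target hairpin (shControl, 3 biological replicates) or a hairpin against STBD1 (shSTBD1, 3 biological replicates), and 1 library is sequenced per replicate. Cells of both groups received the hairpin by lentivirus and were kept under drug selection (puromycin or G418, with no statement of which was used for these cells). STBD1 is depleted by a single hairpin sequence, so an effect of that sequence and an effect of losing STBD1 cannot be told apart. The question put to these libraries is whether the enzymes of glycogen synthesis and breakdown differ at the RNA level when the receptor is depleted.

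Glycogen is a branched store of glucose. Phosphoglucomutase and UDP-glucose pyrophosphorylase make the activated sugar, glycogenin starts the chain, glycogen synthase lengthens it and the branching enzyme adds branch points. In the cytosol, glycogen phosphorylase returns glucose units as glucose-1-phosphate. In the lysosome, acid alpha-glucosidase releases free glucose from glycogen delivered by autophagy, the route that STBD1 serves. Laforin removes phosphate from glycogen and keeps it soluble.

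Between shControl and shSTBD1, the cytosolic phosphorylases move in opposite directions. PYGL, the liver form, rises by 9.73% and PYGB, the brain form, falls by 12.6%, and the groups overlap in their summed RNA. UGP2 has a mean 9.58% above that of shControl, just short of the threshold. GYG1, GYS1, GBE1, PGM1, GAA and EPM2A differ by less than the test resolves. At an adjusted p under 0.05, 2 of the 9 enzymes pass, 1 higher and 1 lower, or 22.2%, against 15.8% of the 15566 genes tested (8.22% higher and 7.54% lower). The count is near that background. Neither of these 2 is called in fits that use effective length or TPM, and PYGL also loses its call with some single libraries left out. With the stricter threshold of the study's methods, an unadjusted p under 1e-5, none of the 9 passes in edgeR, against 2.38% of all tested genes (1.43% higher and 0.957% lower). The study applies that threshold in DESeq2 with a condition on TPM fold change, and uses more relaxed thresholds in other steps. The CPM of the groups do not overlap for 4 of the 9, against 33.6% of all tested genes. Counts are compared here by edgeR's quasi-likelihood test, and each adjusted p below comes from that test with Benjamini-Hochberg adjustment over all tested genes unless another is named.

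The libraries hold between 17689097 and 21668274 expected counts, and the 9 enzymes hold between 104 (EPM2A) and 5524 (PYGL) of these in a library. STBD1 is lower in shSTBD1, at 16.2, 15.7 and 14.4 CPM (counts scaled to a common library size with TMM factors) in shControl and 11.6, 9.06 and 9.18 CPM in shSTBD1 replicates 1 to 3 (log2 fold change -0.64, standard error 0.098, adjusted p = 2.9e-04). With limma on log2(TPM + 1) its adjusted p is 0.065. Of the markers of colon epithelium, 6 of 8 reach 1 TPM, with VIL1 near 0 and CDX1 at 0. Their summed level runs from 2858 to 2893 TPM in shControl and from 3242 to 3378 in shSTBD1, nearly all of it keratins. KRT8, KRT18, KRT19 and CDH1 are higher without overlap in CPM, by 16.5%, 14.8%, 21% and 22%. Their adjusted p in edgeR is 5.9e-04, 3.6e-04, 7.5e-06 and 1.8e-04, respectively. CDX2, a colon transcription factor, is 26.6% lower in TPM without overlap (in CPM the groups overlap, adjusted p = 0.66), and EPCAM differs by -0.1% in TPM. The 5 markers of leukocytes sum to between 7.35 and 8.32 TPM in shControl and between 11.2 and 12.7 in shSTBD1, most of it CD68, a lysosomal protein, while PTPRC and CD3E are at 0. The fibroblast markers sum to between 14.6 and 20.7 TPM over the 6 libraries, nearly all COL1A1, with LUM at 0. The markers of endothelium and of hepatocytes or muscle sum to less than 1 TPM in every library. The part of these differences in the results below was not tested. In bulk RNA, fewer cells that express a gene and less RNA per cell cannot be told apart.

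Library shControl replicate 1 stands apart. Between replicates of 1 group, the chi-square per gene, where 1 is sampling noise alone, is between 5.00 and 6.26 for the 2 pairs that include this library and between 1.64 and 2.02 for the other 4. Every pair thus differs by more than sampling noise, and no library was counted as a repeat of another. Where leaving out shControl replicate 1 changes whether a named gene is called, both results are given.

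Levels of different genes are set side by side in TPM, which is per transcript length. PYGL is the most abundant of the 9, with a lowest, median and highest level of 112, 121 and 126 TPM over the 6 libraries. GAA follows, from 65.9 to 74.4 with a median of 70.5, and lies clear of both its neighbours. PYGB (44.2 to 55.1), GYS1 (37.3 to 44.9), UGP2 (35.7 to 43.1) and PGM1 (34.2 to 39.9) form a chain in which each range overlaps the next. By these TPM values GYG1 lies below them, from 26.9 to 29.2 TPM, and GBE1 lies below GYG1, from 18.03 to 22.13. EPM2A is lowest, from 2.45 to 4.13. Among genes with a mean of at least 1 TPM, PYGL stands at the percentile 93.4, GYS1 at 77.8 and EPM2A at 18.7. The order differs in part by RSEM's posterior mean TPM, which is above 0 also for genes at 0 TPM in every library (a mean of 5.60 in shControl for PTPRC). By this measure GYG1 moves from rank 7 to rank 3, since its mean level is 48.5 in place of 27.9. EPM2A is at 7.22 in place of 3.13 but remains the lowest. PYGB moves from rank 3 to 5, GYS1 from 4 to 6, UGP2 from 5 to 4 and PGM1 from 6 to 7. RSEM's interval for GYG1 in shControl replicate 1 runs from 26.7 to 70.5 TPM, which covers the levels of these 4 genes. In the same library EPM2A has an interval from 4.66 to 9.71, above its TPM of 3.16. The place of GYG1 among these genes is therefore not settled.

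The paralogs that serve other tissues are almost silent. PYGM, the muscle phosphorylase, lies between 0.32 and 1.23 TPM, and GYS2, the liver synthase, between 0.09 and 0.33. GYG2, the glycogenin of liver, is listed at 0 in every library. GYS1 makes up between 99.2% and 99.8% of the synthase RNA. PYGL, by contrast, is known as the liver form and here makes up most of the phosphorylase RNA.

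Cytosolic breakdown carries both changes that pass the test. PYGL (ENSG00000100504) lies on GRCh38 at chr14:50857891-50944483, minus strand, with 20 exons in its canonical transcript. It is at 239.5, 222.7 and 223.3 CPM in shControl replicates 1 to 3 and at 245.7, 254.0 and 252.4 CPM in shSTBD1 replicates 1 to 3. Every shSTBD1 library is above every shControl library, with shControl replicate 1 closest to them. This is a log2 fold change of 0.13 (95% interval 0.060 to 0.21, standard error 0.035), with an adjusted p of 0.015. Without shControl replicate 1 it is 0.17, with an adjusted p of 6.7e-05 in edgeR and an unadjusted p of 1.6e-06. Without shControl replicate 2 or 3, or without shSTBD1 replicate 2 or 3, the adjusted p in edgeR lies between 0.054 and 0.083, so the call is lost.

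PYGB (ENSG00000100994) lies at chr20:25248085-25298012, plus strand, also with 20 exons. It is at 181.1, 165.0 and 164.8 CPM in shControl and at 154.4, 144.7 and 147.7 CPM in shSTBD1. Every shSTBD1 library is below every shControl library, and shControl replicate 1 is the highest of all 6. On the log2 scale PYGB differs by -0.19 (95% interval -0.28 to -0.11, standard error 0.040), with an adjusted p of 0.0035, which ranks 767 by p among the 15566 genes. Without shControl replicate 1 it is -0.15, with an adjusted p of 0.0015 in edgeR, and with any of the 6 libraries left out the adjusted p stays at or below 0.039.

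Neither phosphorylase is called in the fits that use effective length or TPM. With offsets for the effective length that RSEM gives each library, the log2 fold changes are 0.11 for PYGL and -0.21 for PYGB, and edgeR's adjusted p is 0.23 and 0.069, respectively. In this fit 3.29% of all tested genes are called and 0 of the 9 enzymes. With limma on log2(TPM + 1), the log2 fold changes are 0.098 for PYGL and -0.21 for PYGB, the adjusted p is 0.265 and 0.097, and 1.88% of all tested genes are called.

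Within each library the balance of the pair can be read without scaling between libraries. The log2 ratio of PYGL to PYGB counts is 0.404, 0.433 and 0.438 in shControl and 0.670, 0.811 and 0.774 in shSTBD1, which do not overlap. The group means are 0.425 ± 0.019 and 0.752 ± 0.073 (SD over 3 libraries each), a difference of 0.33. With any library left out the difference runs from 0.30 to 0.37, and on TPM it is 0.32. In TPM, PYGL holds 68.4 ± 0.833% of the RNA of PYGL, PYGB and PYGM in shControl and 72.9 ± 1.17% in shSTBD1 (SD, n = 3). The sum of the 3 forms is 170.2 ± 5.57 TPM in shControl and 170.8 ± 0.325 TPM in shSTBD1, and the groups overlap. This pair was chosen with its values known, so the ratio is given as a description.

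**Figure D1:**
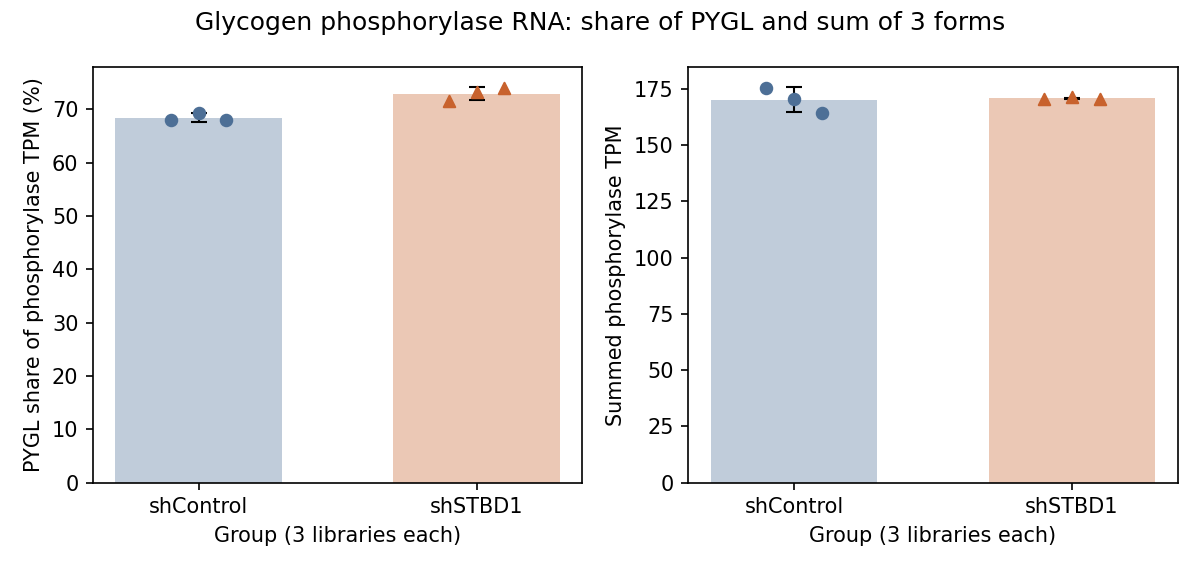
Share of PYGL in the summed TPM of PYGL, PYGB and PYGM (left, %) and that sum (right, TPM), with bars at the mean of 3 libraries, error bars of 1 SD and a point per library. The share is higher in all 3 shSTBD1 libraries, while the sums overlap between 164 and 176 TPM.

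Supply of the activated sugar rests on PGM1 and UGP2. PGM1 (ENSG00000079739, chr1:63593411-63660245, plus strand, 11 exons) converts glucose-6-phosphate and glucose-1-phosphate into each other. It is at 67.4, 66.7 and 74.6 CPM in shControl and at 72.7, 71.7 and 68.2 CPM in shSTBD1, and shControl replicate 3 is above all other libraries. Its log2 fold change of 0.029 has a 95% interval from -0.071 to 0.13 (adjusted p = 0.74). Exons of ITGB3BP, on the opposite strand, share 197 bases with those of PGM1, whose count has a posterior SD in RSEM of 0.000627% on average.

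UGP2 (ENSG00000169764, chr2:63840952-63891562, plus strand, 10 exons) makes UDP-glucose, the glucose donor of glycogen synthase. It is at 55.1, 54.2 and 52.8 CPM in shControl and at 58.8, 57.4 and 61.5 CPM in shSTBD1. All 3 shSTBD1 libraries lie above all 3 shControl libraries, as they do in 17.4% of all tested genes. The log2 fold change of 0.13 has a standard error of 0.044, a 95% interval from 0.040 to 0.22 and an adjusted p of 0.0502. The adjusted p falls to 0.037 without shControl replicate 1, to 0.040 with library size alone and to 0.046 with at least 10 counts required in every library, and it is 0.18 with DESeq2. In TPM the difference is larger, from 35.8 ± 0.106 in shControl to 41.3 ± 1.62 in shSTBD1 (SD, n = 3), since the effective length of its transcripts falls by 6.33%, from a mean of 1725 to 1616 bases. The limma test on log2(TPM + 1) gives it an adjusted p of 0.093.

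The steps of synthesis proper do not separate the groups at the test's threshold. GYG1 (ENSG00000163754, chr3:148991408-149031775, plus strand, 8 exons), glycogenin, primes the chain by attaching glucose to itself. It is at 37.0, 37.5 and 38.0 CPM in shControl and at 38.9, 38.9 and 38.2 CPM in shSTBD1, a narrow gap without overlap. Between groups the log2 fold change is 0.044 (95% interval -0.057 to 0.15, adjusted p = 0.58). HLTF, on the opposite strand, shares 1649 exon bases with GYG1 and is at 27.6 TPM, while the posterior SD that RSEM gives the GYG1 count is 0 in every library.

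GYS1 (ENSG00000104812, chr19:48968130-48993310, minus strand, 16 exons), the glycogen synthase of most tissues other than liver, moves with 1 library. It is at 100.4, 83.8 and 85.6 CPM in shControl and at 96.1, 92.3 and 91.3 CPM in shSTBD1. The shSTBD1 libraries lie above shControl replicates 2 and 3 and below replicate 1. With all libraries the log2 fold change is 0.052 (95% interval -0.064 to 0.17, adjusted p = 0.57), and without shControl replicate 1 it is 0.14 with an adjusted p of 0.014 in edgeR. Without that library 4 of the 9 enzymes are called, GYS1, UGP2 and PYGL higher and PYGB lower, or 44.4% against 16.2% of all genes tested in that fit. In TPM the sign of GYS1 turns, from 41.7 ± 3.93 in shControl to 40.5 ± 2.31 in shSTBD1 (SD, n = 3), and the groups overlap. Its effective length is 2493, 2284 and 2631 bases in shControl and 2531, 2602 and 2643 bases in shSTBD1, a mean 4.98% higher.

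GBE1 (ENSG00000114480, chr3:81489703-81761645, minus strand, 16 exons), the branching enzyme, is at 47.7, 47.6 and 45.6 CPM in shControl and at 49.98, 43.96 and 43.12 CPM in shSTBD1. The shSTBD1 libraries lie on both sides of shControl. GBE1 has a log2 fold change of -0.044 (95% interval -0.16 to 0.074, adjusted p = 0.65). The summed level of GYG1, GYS1 and GBE1 is 90.6 ± 4.52 TPM in shControl and 88.1 ± 4.97 TPM in shSTBD1 (SD, n = 3). The ratio of summed phosphorylase TPM to GYS1 TPM is 4.10 ± 0.269 and 4.23 ± 0.238 in the same order, with overlapping groups.

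**Figure D2:**
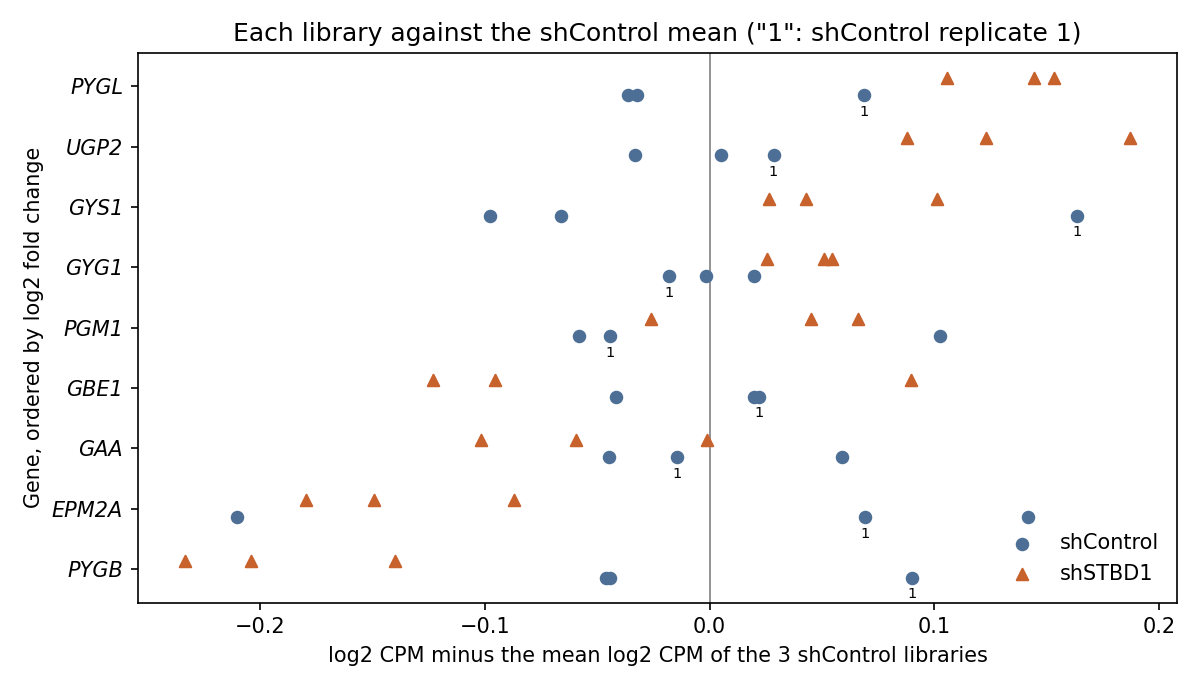
Log2 CPM of each enzyme in each library, relative to the mean of the 3 shControl libraries, with shControl replicate 1 marked "1". The groups do not overlap for PYGL, UGP2, GYG1 and PYGB, and shControl replicate 1 lies above the other shControl libraries for GYS1, PYGL, PYGB, UGP2 and, narrowly, GBE1.

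Lysosomal breakdown is represented by GAA (ENSG00000171298, chr17:80101533-80119881, plus strand, 20 exons), the acid alpha-glucosidase whose loss causes Pompe disease. It acts on the same glycogen that STBD1 is known to deliver. It is at 139.6, 136.7 and 146.9 CPM in shControl and at 135.3, 140.9 and 131.4 CPM in shSTBD1, and the groups overlap. Its log2 fold change of -0.053 has a standard error of 0.038 and an adjusted p of 0.38. The 95% interval, from -0.13 to 0.027, bounds a fall at the size of 0.13 on the log2 scale. The ratio of GAA to summed phosphorylase TPM is 0.422 ± 0.027 in shControl and 0.404 ± 0.015 in shSTBD1 (SD, n = 3), with overlap.

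GAA is the only 1 of the 9 enzymes in the study's list of PCR primers, which also holds STBD1. The paper describes PCR of GAA as a measure of its knockdown by siRNA, which is not the comparison made here. The primers are shown, 5′ to 3′, to place them on the genes counted here.
GAA forward: catcctactccatgatttcctgc
GAA reverse: agctgggtgagtctcctcc
STBD1 forward: gggagaatggggattccaaaaa
STBD1 reverse: cggtcctgactgttcaaatcaga
Matched to GENCODE transcripts on GRCh38, the GAA pair spans 79 bases at chr17:80104673-80104751, within the coding part of exon 2, and each primer matches transcripts of GAA alone. It is found in 5 of the 9 GAA transcripts. The STBD1 pair spans 141 bases at chr4:76309373-76309513, in the coding part of exon 2. Both STBD1 primers also match FAM47E-STBD1, a read-through gene that shares 1986 exon bases with STBD1, and the uncertainty that RSEM gives the count of STBD1 (a posterior SD) averages 8.56% of the count. For the 9 enzymes this value is below 0.01%, so their counts were not split with other genes.

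EPM2A (ENSG00000112425, chr6:145382535-145736023, minus strand, 4 exons) encodes laforin. It is at 6.34, 5.22 and 6.66 CPM in shControl and at 5.69, 5.33 and 5.45 CPM in shSTBD1, all within the shControl range. With 104 to 122 counts per library, the 95% interval of its log2 fold change, -0.42 to 0.13, is the widest of the 9 (estimate -0.14, adjusted p = 0.51). In TPM the sign turns, from 2.88 ± 0.376 to 3.39 ± 0.665 (SD, n = 3), with overlap. Its effective length falls by 22.8%, from a mean of 2418 bases in shControl to 1867 in shSTBD1, with 1480 bases in shSTBD1 replicate 3.

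The other genes of the pathway number 32, of which 25 have enough counts to be tested. They include paralogs, laforin's partner, phosphorylase kinase, protein phosphatase 1 and its glycogen-targeting subunits, GSK3, glucose-6-phosphate release and the enzymes that share glucose-1-phosphate or UDP-glucose. At an adjusted p under 0.05, 4 of the 25 are higher and 1 is lower, while 15.8% of all tested genes are called. Their median log2 fold change is 0.015, against 0.0023 over all tested genes and 0.029 over the 9 enzymes. In absolute value the medians are 0.097, 0.11 and 0.053.

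Of the 4 increases, 3 are among the 4 tested enzymes that use or feed UDP-glucose outside glycogen, while 8.22% of all tested genes are called higher. Of these 3 calls, those of GALT and UGDH depend on the processing. GALK1, galactokinase, is at 37.5, 33.8 and 33.0 CPM in shControl and at 40.5, 43.6 and 43.4 CPM in shSTBD1 (log2 fold change 0.29, standard error 0.057, adjusted p = 0.0023). It also passes in limma on log2(TPM + 1), with a log2 fold change of 0.33 and an adjusted p of 0.029. GALT, which exchanges galactose-1-phosphate for glucose-1-phosphate on UDP-glucose, rises from 15.5 ± 0.626 to 18.3 ± 1.37 CPM (SD, n = 3; log2 fold change 0.24, adjusted p = 0.044 in edgeR). UGDH, which oxidizes UDP-glucose to UDP-glucuronate, rises from 47.7 ± 1.63 to 52.8 ± 0.638 CPM (SD, n = 3; log2 fold change 0.15, adjusted p = 0.035 in edgeR). GALK1 keeps its call under every alternative tried. Without shControl replicate 1 the adjusted p in edgeR is 0.096 for GALT and 0.093 for UGDH, and over all single libraries left out it reaches 0.18 and 0.12. With DESeq2 these genes have an adjusted p of 0.158 and 0.141. With effective-length offsets the log2 fold change of UGDH is 0.080 (adjusted p = 0.60 in edgeR), and in limma on log2(TPM + 1) it is 0.067 (adjusted p = 0.65), with overlapping groups in TPM. In the same fits GALT is at 0.28 and 0.26, with an adjusted p of 0.15 and 0.16.

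Phosphorylase kinase activates phosphorylase, and its 5 subunits are all tested. PHKB, the beta subunit, falls from 51.4, 49.8 and 49.4 CPM in shControl to 46.3, 43.0 and 43.3 CPM in shSTBD1 (log2 fold change -0.18, standard error 0.047, adjusted p = 0.014), with no overlap. The adjusted p in edgeR becomes 0.081 without shSTBD1 replicate 2, 0.067 without shSTBD1 replicate 3 and 0.20 with effective-length offsets. PHKA2, PHKA1, PHKG2 and PHKG1 have log2 fold changes of -0.093, 0.035, 0.016 and 0.0038, and none of these is called. Without shControl replicate 1 PHKA1 is at 0.121 and is still not called (adjusted p = 0.126 in edgeR).

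Protein phosphatase 1 opposes that kinase and activates glycogen synthase. Its catalytic subunit PPP1CC rises from 327.3 ± 14.4 to 352.3 ± 5.73 CPM (SD, n = 3; log2 fold change 0.11, adjusted p = 0.048 in edgeR). Leaving out any 1 library other than shControl replicate 2 ends this call, with an adjusted p in edgeR of up to 0.18. PPP1CB and PPP1CA differ by 0.097 and -0.12 on the log2 scale, and their adjusted p in edgeR is 0.066 and 0.060. Without shControl replicate 1 PPP1CB passes, at 0.117 with an adjusted p of 0.0082 in edgeR. In that fit PPP1CA is at -0.068 and does not pass (adjusted p = 0.121 in edgeR). Of the 7 subunits that bring the phosphatase to glycogen, 5 are tested and 0 are called. PPP1R3F, PPP1R3G and PPP1R3D have the widest differences of these, -0.79, -0.40 and 0.34 on the log2 scale, and edgeR gives them an adjusted p of 0.077, 0.27 and 0.12. They are low, with at most 1.68, 2.18 and 5.47 CPM in any library. PPP1R3A is listed at 0 in every library, and PPP1R3C is at or below 0.05 TPM.

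GSK3A and GSK3B, kinases that inhibit glycogen synthase, have log2 fold changes of 0.0092 and 0.042 (adjusted p = 0.90 and 0.52). PGM2, a paralog of PGM1, differs by 0.12, with an adjusted p of 0.057. Without shControl replicate 1 PGM2 passes narrowly, with an adjusted p of 0.0485 in edgeR. With effective-length offsets PGM2 differs by 0.24 and passes (adjusted p = 0.045), and its TPM is 17.3% higher with no overlap. NHLRC1, the ubiquitin ligase malin that partners laforin, and G6PC1, the glucose-6-phosphatase of liver, are listed at 0 in every library, and G6PC2 is at or below 0.06 TPM. For G6PC3, the widely expressed glucose-6-phosphatase, the difference is -0.025 on the log2 scale (adjusted p = 0.80).

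**Figure D3:**
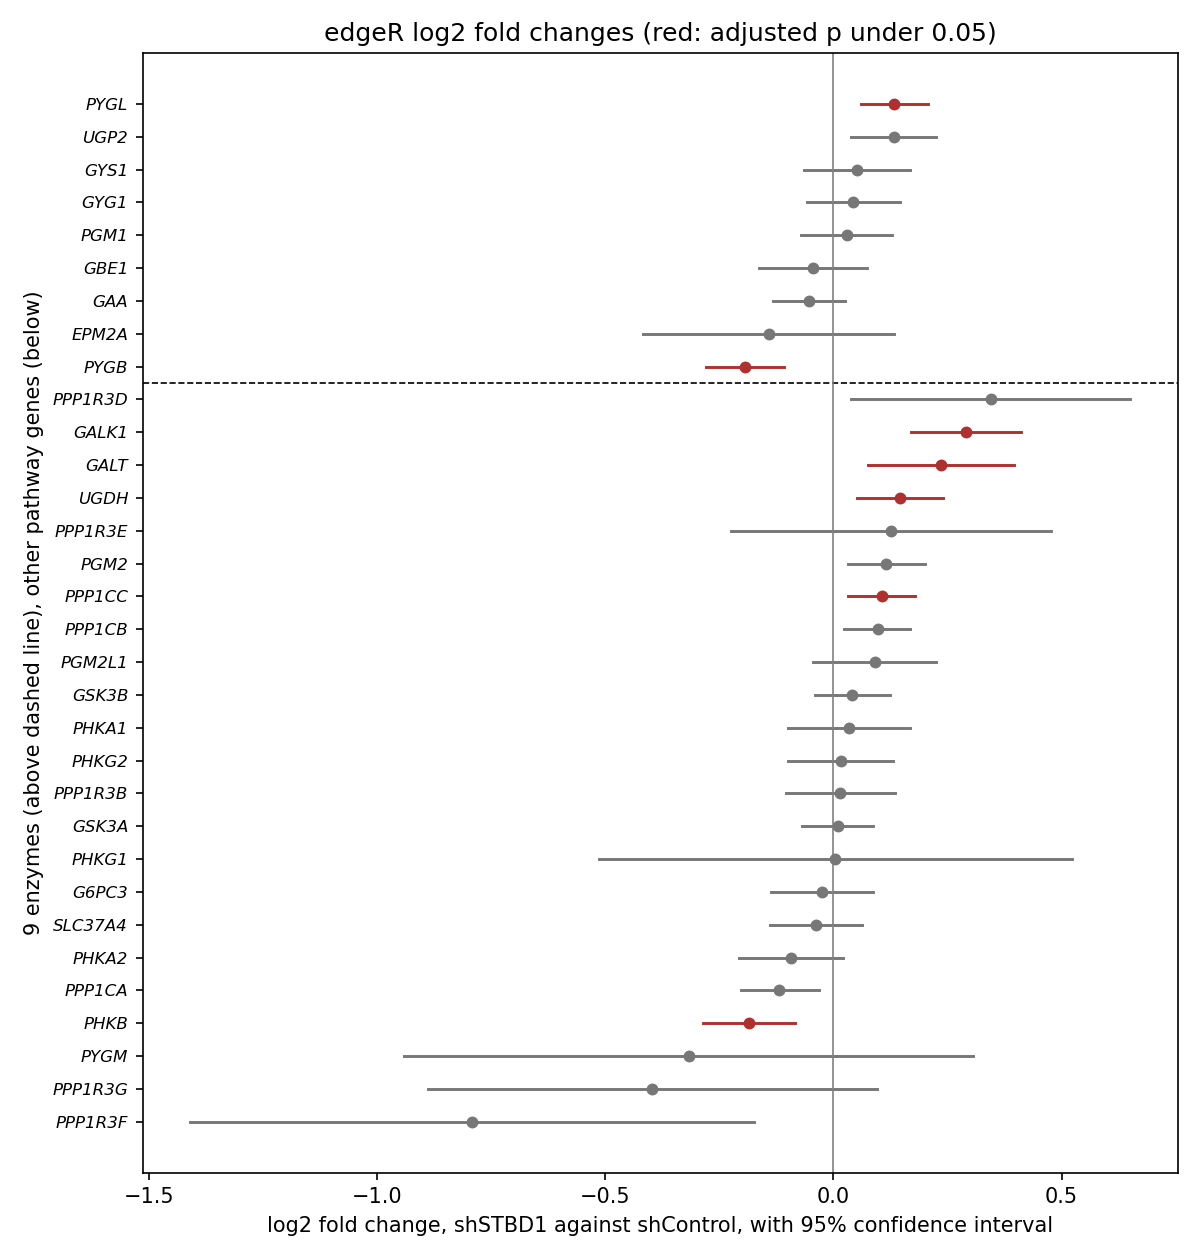
Log2 fold changes of the 9 enzymes (above the dashed line) and most of the 25 other tested pathway genes (below) with 95% confidence intervals, in red where the adjusted p from edgeR is under 0.05. PYGL and PYGB are red among the 9, and GALK1, GALT, UGDH, PPP1CC and PHKB among the others.

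PYGB has the smallest p of the 9 enzymes. Over the 6 libraries, the genes whose log2 CPM follows it most closely among 14062 with a mean of at least 1 CPM are ABLIM1 (Pearson's r = 0.999), POLR1E (0.997) and PPP1R3G (0.995). The 6 points share the contrast between groups and the high value of shControl replicate 1, so this is a description of the profile. PPP1R3G is a glycogen-targeting subunit of protein phosphatase 1, at 1.92 ± 0.227 CPM in shControl and 1.46 ± 0.127 CPM in shSTBD1 (SD, n = 3), and its own difference has an adjusted p of 0.27 in edgeR.

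**Figure D4:**
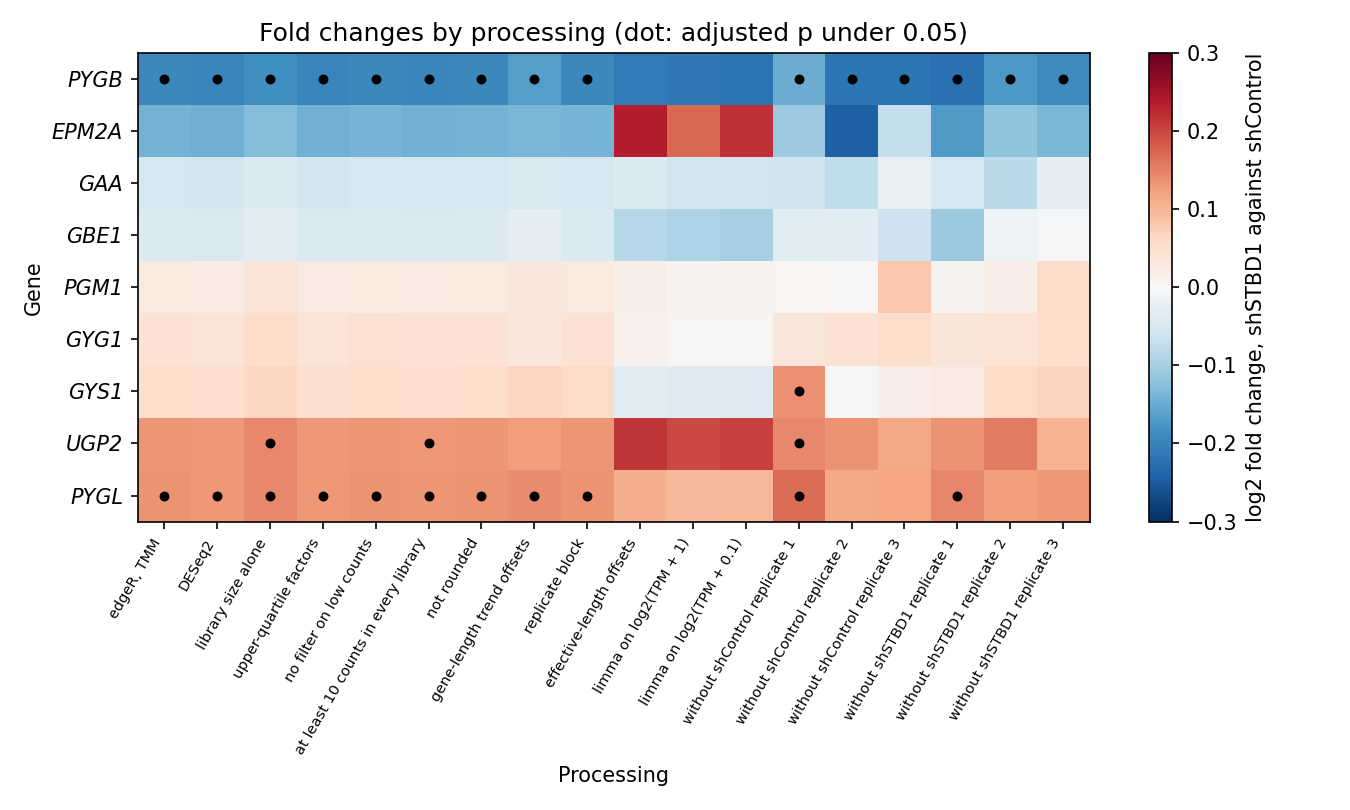
Log2 fold change of each enzyme (colour) under edgeR with TMM and 17 other ways of processing the files, with a dot where the adjusted p is under 0.05. PYGB keeps its call except in the fits that use effective length or TPM, while GYS1 and EPM2A turn sign there.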

How the data were processed

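RNA-seq libraries of shControl and shSTBD1 HCT116 cells, 3 of each, are grouped by their labels. The authors align filtered reads to Hg38 with STAR 2.7.1a on Ensembl release 93 gene models and run RSEM 1.3.1. They deposited expected counts, which are not normalized and can be fractional, and TPM, which the authors scale by gene length and read count. Other deposited columns used are RSEM's effective length, its posterior mean TPM, the bounds of its TPM interval and its posterior standard deviation. Strand in counting is not given in the sources used here.

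Expected counts are rounded, filtered by filterByExpr to 15566 genes, scaled by TMM and compared by edgeR 4.0.16 (R 4.3.3) without a block, with Benjamini-Hochberg adjustment. Each standard error is the log2 difference divided by the root of edgeR's F. Alternatives include DESeq2 1.42.0 and limma 3.58.1 on log2 of TPM plus 1 or 0.1. Positions are from GENCODE release 44 on GRCh38. Scripts were tested on simulated counts. Named genes are the 9 enzymes, STBD1, pathway genes that are called or untested, and the 3 genes most like the enzyme of smallest p. PPP1R3F, PPP1R3D, CDX2, EPCAM, CDH1, the keratins and the pathway genes given as not called were added after their values were seen. The enzymes, lists and tests were chosen with earlier results of these data known. Some pathway genes are counted but not reported by name here.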

Additional observations from a re-analysis of the deposited data

How the results depend on the processing

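Of 153 values of the 9 enzymes under 17 alternatives, 132 kept their direction and side of the threshold. The sign turned for GYS1 with offsets for effective length (-0.034) and in limma on log2 of TPM plus 1 or 0.1 (-0.039 in each), for EPM2A in the same fits (0.23, 0.17 and 0.22) and for PGM1 without shControl replicate 2 (-0.00047, in a range up to 0.081 with other libraries left out). The cause was not tested. The number of the 9 enzymes called higher, 1 in the report, was 2 with library size alone, 2 with at least 10 counts in every library, 0 with effective-length offsets and 0 in limma at either pseudocount, and with a library left out it ran from 0 to 3. The number called lower, also 1, was 0 with effective-length offsets and 0 in limma, and 1 with any library left out. At an unadjusted p under 1e-5, 1 was lower without the filter on low counts, and from 0 to 1 were higher with a library left out, the 1 being PYGL without shControl replicate 1. Of the other pathway genes, 4 called higher became 1 with DESeq2, 2 with effective-length offsets and 1 in limma at either pseudocount, and 1 to 3 with a library left out. The same count became 5 with library size alone, with gene-length offsets or with the replicate block, and 3 with upper-quartile factors. The 1 called lower became 2 without the filter, 3 with at least 10 counts, 2 with gene-length offsets, 2 with the replicate block, 0 with effective-length offsets or limma, and 0 to 2 with a library left out.

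Over all tested genes, 1280 higher and 1173 lower became 822 and 757 with DESeq2, 288 and 224 with offsets for effective length, 178 and 114 in limma on log2(TPM + 1), 176 and 114 with 0.1 added, and 785 to 1333 and 624 to 1244 with a library left out. Deviations of same-numbered libraries correlate across genes at 0.068, 0.041 and -0.0068 for replicates 1 to 3. The highest correlation of these shControl libraries with an shSTBD1 library of another number is -0.013, 0.022 and 0.018. Whether libraries of the same number were prepared together cannot be told from these values. With the replicate block, the calls of the 9 enzymes are the same as without it (PYGB adjusted p = 7.4e-04, PYGL 0.016, in edgeR), and 7 other pathway genes pass in place of 5. Depth limits EPM2A most, with 104 to 122 counts per library, against at least 673 for every other enzyme.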
